A study of Rattus norvegicus with 6 samples.

Results

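The genes described here are those of sodium and calcium extrusion at the cell surface of the rat left atrium: the sodium pump subunits Atp1b1, Atp1b2 and Atp1b3, the pump regulator Fxyd1, the sodium-calcium exchanger Slc8a1 and the plasma membrane calcium pumps Atp2b1 and Atp2b4. They are 7 of the 11237 genes measured. Each was taken from the probe sets that carry its symbol alone, which was a single probe set for each of the 7, and all 7 had a log2 signal above 5 on every array.

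The left atria came from adult male Sprague-Dawley rats in 2 groups of 3. In RAP rats the atria were paced rapidly, with a cycle length of 70 ms, for 48 hours, and in control (Con) rats the cycle length was 140 ms over the same time. All rats carried an implanted atrial electrode and drank water with the beta blocker atenolol, so both groups share surgery, pacing and that drug, and the ventricular rate was alike in both. Every RAP rat had a partner among the Con rats, with which it shared the time of surgery, recovery and pacing, and RNA of each rat was hybridized to 1 array. The model covers 2 days of pacing in healthy adult rats, only pairs with good RNA were used, and whole atrial tissue was measured, in which fewer cells of a type and less RNA per cell cannot be told apart.

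The sodium pump exports sodium and imports potassium at the expense of ATP. It consists of a catalytic alpha subunit and a beta subunit that brings the alpha subunit to the membrane and tunes its affinity for ions. In heart muscle a small FXYD protein, phospholemman (Fxyd1), sits beside the pump and restrains it until phospholemman is phosphorylated. The sodium gradient that the pump builds drives the sodium-calcium exchanger NCX1 (Slc8a1), the main route by which calcium leaves a cardiomyocyte after each beat, while the plasma membrane calcium pumps (PMCA1, encoded by Atp2b1, and PMCA4, encoded by Atp2b4) export a smaller amount and act in signaling.

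The values are log2 signals after robust multiarray averaging, so a difference of 1 is a doubling, and signals of different genes cannot be set against each other. The median signal of the 6 arrays lay between 5.82 and 5.85. The atrial natriuretic peptide Nppa was strong on all of them. It was at 13.54, 13.59 and 13.53 in RAP rats 1 to 3, against 13.40, 13.46 and 13.52 in Con rats 1 to 3. The mean signals of the 13 atrial cardiomyocyte markers measured ran between 5.96 and 13.66. Con 3 stood apart in ventricular and red blood cell markers: the ventricular light chain Myl2 was at 4.89, 4.44 and 4.37 in RAP rats, against 4.33, 4.28 and 8.60 in Con rats, and the mean deviation of the red blood cell markers was 2.06 on Con 3 and below 0 on the other arrays. Other lists stood out on other arrays, with macrophage markers at 1.00 on Con 2 and adipocyte markers at 1.10 on RAP 3. The changes of the 7 genes are therefore also given without Con 3, unpaired. A gene passed, and is called higher or lower, where limma's moderated and pair-blocked fit gave an unadjusted p under 0.05 and the fold change exceeded 1.3, the thresholds of the study's methods. No probe set had a Benjamini-Hochberg adjusted p under 0.05 in that test (0 of 19907, with 1275 at an unadjusted p under 0.05 and 1180 past both thresholds), nor in the methods' t-test (0, with 1147 at an unadjusted p under 0.05), and a permutation test of 3 pairs cannot go below an exact two-sided p of 0.25.

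Atp1b1 and Slc8a1 rose with RAP, by 0.62 and 0.53 on the log2 scale. The other 5 genes did not pass the thresholds, with Fxyd1 and Atp1b2 at positive changes of 0.42 and 0.26 and with Atp1b3, Atp2b1 and Atp2b4 at -0.17, -0.14 and -0.21. Thus 2 of 7 genes passed as higher, beside 2.94% of all genes, and 0 of 7 passed as lower, beside 3.45% of all genes. In either direction 6.39% of all genes passed. The RAP and Con arrays did not overlap for 2 of the 7, beside 15.4% of all genes, and 2 of the 7 moved the same way in all 3 pairs, a share close to the 28.4% of all genes. The methods' t-test called 0 of the 7, beside 2.08% of all genes. The count of 2 was 0 without pair 1 or without pair 2, 4 without pair 3 or without RAP 3 alone, and 3 without Con 3 alone. The median change of the 7 was 0.26, and that of all genes was -0.007. The median of the 7 stood 0.27 above that of all genes.

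**Figure D1:**
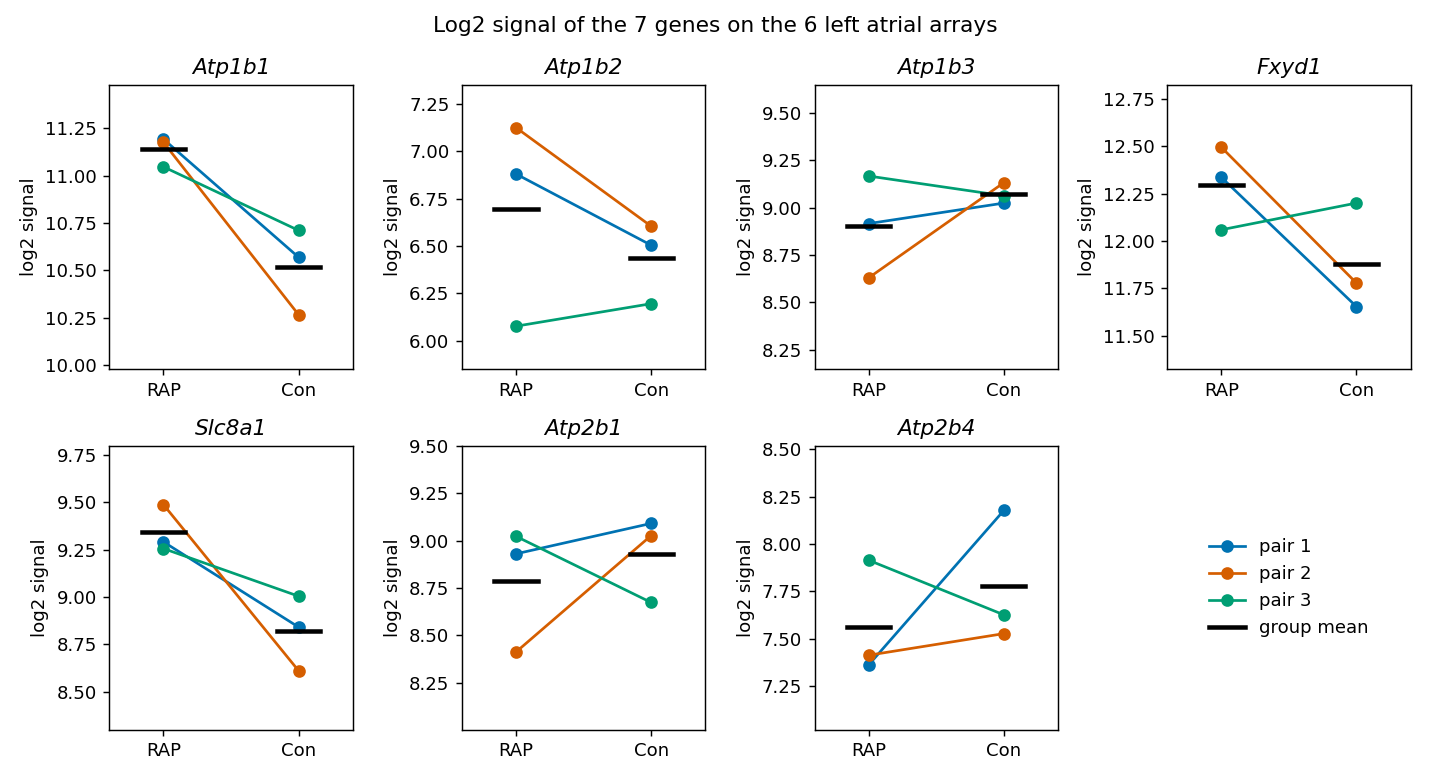
Log2 signal (vertical axis) of the 7 genes on the RAP and Con arrays, with a line joining the rats of a pair and a bar at each group mean. In the panels of Atp1b1 and Slc8a1 all 3 RAP arrays lie above all 3 Con arrays, and in the other 5 panels the groups overlap.

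Atp1b1 encodes the beta 1 subunit, the main beta subunit of the cardiac pump. Its log2 signal was 11.19, 11.18 and 11.05 in RAP rats 1 to 3, against 10.57, 10.26 and 10.71 in Con rats 1 to 3. All RAP arrays were above all Con arrays, and the RAP arrays were close together while the Con arrays spread more widely. The means were 11.14 ± 0.08 in RAP and 10.51 ± 0.23 in Con rats (SD, n = 3 each). The change was 0.62, 0.91 and 0.34 in pairs 1 to 3. By limma it averaged 0.62, a 1.54-fold rise, with an SE of 0.17 and a 95% interval of 0.19 to 1.05 (adjusted p = 0.76). The change was more positive in 1.76% of all genes.

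Atp1b2 encodes the beta 2 subunit, best known from glia. Its signal was 6.88, 7.12 and 6.08 in RAP rats, against 6.50, 6.60 and 6.19 in Con rats. RAP 3 was the lowest of the 6 arrays and RAP 2 the highest, so the groups overlapped. The pairs gave 0.38, 0.52 and -0.12, and limma gave 0.26 with an SE of 0.18 and a 95% interval of -0.20 to 0.72 (adjusted p = 0.79). Without pair 3 the change was 0.45, and without RAP 3 alone, unpaired, it was 0.57, both past the thresholds. Without Con 3 alone it was 0.14.

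Atp1b3 encodes the beta 3 subunit, which is found in many tissues. Its signal was 8.92, 8.63 and 9.17 in RAP rats, against 9.02, 9.13 and 9.06 in Con rats. The Con arrays lay within a narrow band, and the RAP arrays were spread on both sides of it. The pairs gave -0.11, -0.50 and 0.10, and limma gave -0.17 with an SE of 0.17 and a 95% interval of -0.61 to 0.28 (adjusted p = 0.84). Without Con 3 alone it was -0.17. The change of Atp1b1 exceeded that of Atp1b3 in every pair, by 0.73, 1.41 and 0.23, with a mean of 0.79 ± 0.59 (SD, n = 3). It also exceeded that of Atp1b2 in every pair, by 0.25, 0.39 and 0.45, with a mean of 0.36 ± 0.11 (SD, n = 3). These comparisons between subunits were chosen after the values were seen and have no test.

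**Figure D2:**
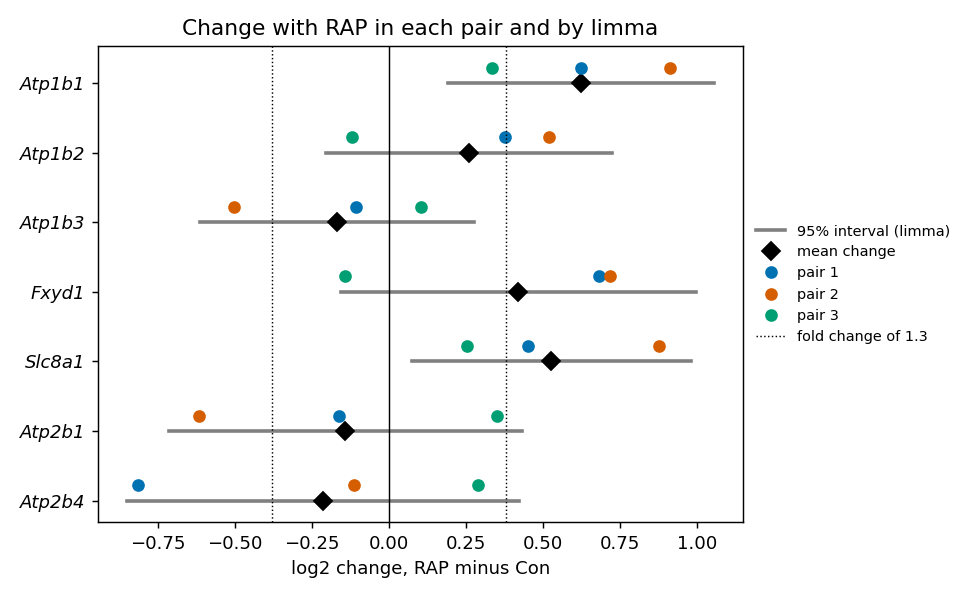
Change of each gene (log2, RAP minus Con, horizontal axis) in pairs 1 to 3 as coloured points, with the mean as a diamond and the 95% interval by limma as a line; dotted lines mark a fold change of 1.3. The intervals of Atp1b1 (0.19 to 1.05) and Slc8a1 (0.07 to 0.98) lie above 0, and the other 5 include it.

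Of the beta subunits, Atp1b2 and Atp1b3 have a RefSeq window at the gene start, and both are printed to show how subunits that share a role in the pump differ upstream of their genes. Each run is the 250 bases before the start in the GRCr8 build, 5′ to 3′ along the gene. Capitals mark the GC box, the letters GGGCGG or their complement CCGCCC on the other strand, which 30.5% of 33469 rat windows of this length hold at least once. Atp1b2 lies at chr10:54823709-54823958 on the minus strand, and Atp1b3 at chr8:105821152-105821401 on the minus strand.
Atp1b2: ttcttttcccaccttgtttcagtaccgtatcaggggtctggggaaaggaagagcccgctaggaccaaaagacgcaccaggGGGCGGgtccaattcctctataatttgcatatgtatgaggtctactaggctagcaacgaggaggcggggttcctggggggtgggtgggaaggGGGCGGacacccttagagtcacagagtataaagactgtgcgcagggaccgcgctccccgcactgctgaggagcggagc
Atp1b3: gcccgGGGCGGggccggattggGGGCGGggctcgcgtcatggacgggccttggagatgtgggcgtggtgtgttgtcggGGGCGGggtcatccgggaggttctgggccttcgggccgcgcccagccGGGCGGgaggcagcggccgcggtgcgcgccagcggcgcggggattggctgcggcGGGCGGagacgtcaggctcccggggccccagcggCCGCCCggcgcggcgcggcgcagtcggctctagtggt
The Atp1b3 window has a GC content of 79.6%, higher than 98.8% of the windows, and holds 6 GC boxes. It holds neither a TATA box (TATAAA) nor an E box (CANNTG). The Atp1b2 window has a GC content of 58.0% and 2 GC boxes, with 1 TATA box, which 12.9% of windows hold, and 1 E box, which 65.5% hold. These matches describe the letters only.

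Fxyd1 encodes phospholemman, the cardiac regulator that couples the pump to beta-adrenergic signaling. Its signal was 12.34, 12.49 and 12.06 in RAP rats, against 11.65, 11.78 and 12.20 in Con rats. RAP 1 and RAP 2 were above every Con array, while RAP 3 was below Con 3. The means were 12.30 ± 0.22 in RAP and 11.88 ± 0.29 in Con rats (SD, n = 3 each). The pairs gave 0.68, 0.72 and -0.14, and limma gave 0.42 with an SE of 0.22 and a 95% interval of -0.16 to 1.00 (adjusted p = 0.77). Whether Fxyd1 passed depended on the pair or array left out. Without pair 3 the change was 0.70, without RAP 3 alone, unpaired, it was 0.54, and without Con 3 alone it was 0.58, all past the thresholds. Without pair 1 it was 0.29 and without pair 2 it was 0.27, neither past the thresholds. Con 3 is the array with the high Myl2 signal, and the part of that in the result was not tested.

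The Fxyd1 window (GRCr8, chr1:95418581-95418830, minus strand) is shown with GC boxes in capitals. Its RefSeq start lies 65 bases inside the annotated gene, while those of Atp1b2 and Atp1b3 are at the gene's first base.
Fxyd1: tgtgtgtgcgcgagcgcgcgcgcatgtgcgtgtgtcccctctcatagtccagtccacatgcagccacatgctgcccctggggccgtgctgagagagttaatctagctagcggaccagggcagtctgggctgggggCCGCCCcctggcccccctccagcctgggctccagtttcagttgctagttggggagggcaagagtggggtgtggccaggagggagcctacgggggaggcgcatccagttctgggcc
It holds 1 GC box and 4 E boxes in 66.8% GC, against a median GC content of 51.2% over all windows. The motif AGATAA, the form of a GATA site searched here, was at 0 matches in the windows of Fxyd1, Atp1b2 and Atp1b3 and occurs in 10.3% of all windows.

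Slc8a1 encodes NCX1, the sodium-calcium exchanger of the cardiomyocyte membrane. Its signal was 9.29, 9.49 and 9.26 in RAP rats, against 8.84, 8.61 and 9.004 in Con rats. All RAP arrays were above all Con arrays, with the widest gap in pair 2. The means were 9.34 ± 0.12 in RAP and 8.82 ± 0.20 in Con rats (SD, n = 3 each). The pairs gave 0.45, 0.88 and 0.25, and limma gave 0.53, a 1.44-fold rise, with an SE of 0.17 and a 95% interval of 0.07 to 0.98 (adjusted p = 0.76). The change was more positive in 2.87% of all genes.

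The pair with the smallest change was the same for Atp1b1 and Slc8a1, pair 3, and the largest change of both was in pair 2. Without Con 3 alone, unpaired, Atp1b1 changed by 0.72 and Slc8a1 by 0.62, both past the thresholds. Without Con 2 alone, unpaired, they changed less, by 0.50 and 0.42, also past the thresholds. The changes were 0.62 and 0.56 without pair 1, and 0.48 and 0.35 without pair 2, and in both cases, with 4 arrays left, neither gene passed. Both genes passed in each of the 6 unpaired fits that left out a single array.

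Atp2b1 encodes PMCA1, the calcium pump of most cell types. Its signal was 8.93, 8.41 and 9.02 in RAP rats, against 9.09, 9.03 and 8.67 in Con rats. RAP 2 was the lowest array, and the other 5 overlapped. The pairs gave -0.16, -0.62 and 0.35, and limma gave -0.14 with an SE of 0.22 and a 95% interval of -0.72 to 0.43 (adjusted p = 0.89). The sign turned without pair 2, at 0.094, and without Con 3 alone the change was -0.27, not past the thresholds.

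Atp2b4 encodes PMCA4, which in heart muscle is known for its part in calmodulin and nitric oxide signaling. Its signal was 7.36, 7.41 and 7.91 in RAP rats, against 8.18, 7.53 and 7.63 in Con rats. Con 1 was the highest array, and RAP 3 was above the other Con arrays. The pairs gave -0.82, -0.11 and 0.29, and limma gave -0.21 with an SE of 0.24 and a 95% interval of -0.85 to 0.42 (adjusted p = 0.85). The sign turned without pair 1, at 0.087, and without Con 3 alone the change was -0.29, not past the thresholds.

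The exchanger and the calcium pumps thus had changes of different sign in pairs 1 and 2. The change of Slc8a1 minus that of Atp2b1 was 0.61, 1.49 and -0.10 in pairs 1 to 3, with a mean of 0.67 ± 0.80 (SD, n = 3). Slc8a1 minus Atp2b4 was 1.27, 0.99 and -0.04, with a mean of 0.74 ± 0.69 (SD, n = 3). In both comparisons pair 3 lay near 0, and the comparisons, chosen after the values were seen, have no test.

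Marker lists of cell types differed between the pairs, and their part in the changes of the 7 genes was not tested. Beside the counts of markers past the thresholds, 2.94% of all genes passed as higher and 3.45% as lower. The 13 atrial cardiomyocyte markers measured (of 14 listed) had mean changes of 0.30, 0.70 and 0.02 in pairs 1 to 3, and 2 of them passed as higher. For the 12 sarcomere genes measured (of 16) the changes were 0.55, 0.91 and 0.10, and 6 passed as higher. Both lists, which share Myh6, Actc1 and Tnnt2, had the order of pairs seen in Atp1b1 and Slc8a1. The ventricular and red blood cell markers given below had this order as well. So did the 7 Schwann cell and neuron markers measured (of 10), at 0.12, 0.31 and -0.39. The 9 endothelial markers measured (of 10) had another order, at 0.32, -0.15 and -0.10. So had the 9 smooth muscle and pericyte markers (of 9), at 0.49, -0.02 and -0.08. The 11 fibroblast markers (of 11) had mean differences of -0.52, -1.55 and 0.72, with 0 higher and 1 lower past the thresholds, and the 13 macrophage markers (of 13) had -0.45, -1.58 and 0.72, with 0 higher and 0 lower. These signs are those of Atp1b3, Atp2b1 and Atp2b4 in every pair, which were lower in pairs 1 and 2 and higher in pair 3. The atrial cardiomyocyte markers deviated from their means over the arrays by 0.12, 0.41 and -0.02 in RAP rats, against -0.18, -0.29 and -0.04 in Con rats, and the macrophage markers by -0.29, -0.58 and 0.23 in RAP rats, against 0.15, 1.00 and -0.50 in Con rats. The mean signals of the markers ran between 8.79 and 11.85 for fibroblasts and between 4.91 and 10.64 for macrophages. Of the other lists, the 9 adipocyte markers (of 9) had 0.40, 0.26 and 0.67, with 4 higher and 0 lower past the thresholds, and the 5 mesothelial markers measured (of 8) had -1.13, -0.18 and -0.23, with 0 higher and 2 lower. The 8 ventricular markers (of 8) had 0.45, 0.73 and -1.27, and the 5 red blood cell markers measured (of 9) had 0.043, 0.61 and -2.71, with the lowest value of both in pair 3, which holds Con 3.

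Set relative to the atrial cardiomyocyte markers of the same array, Atp1b1 was 0.28 higher in RAP rats and Slc8a1 0.19 higher, and neither passed. On this scale Fxyd1 stood at 0.08, Atp1b2 at -0.08, Atp1b3 at -0.51, Atp2b1 at -0.48 and Atp2b4 at -0.55. The scale moves all genes by the same amount and puts their median at -0.35. Measured against that median, each gene by construction stands where it did before, with Atp1b1 at 0.63, Slc8a1 at 0.53 and Atp1b2 at 0.27.

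**Figure D3:**
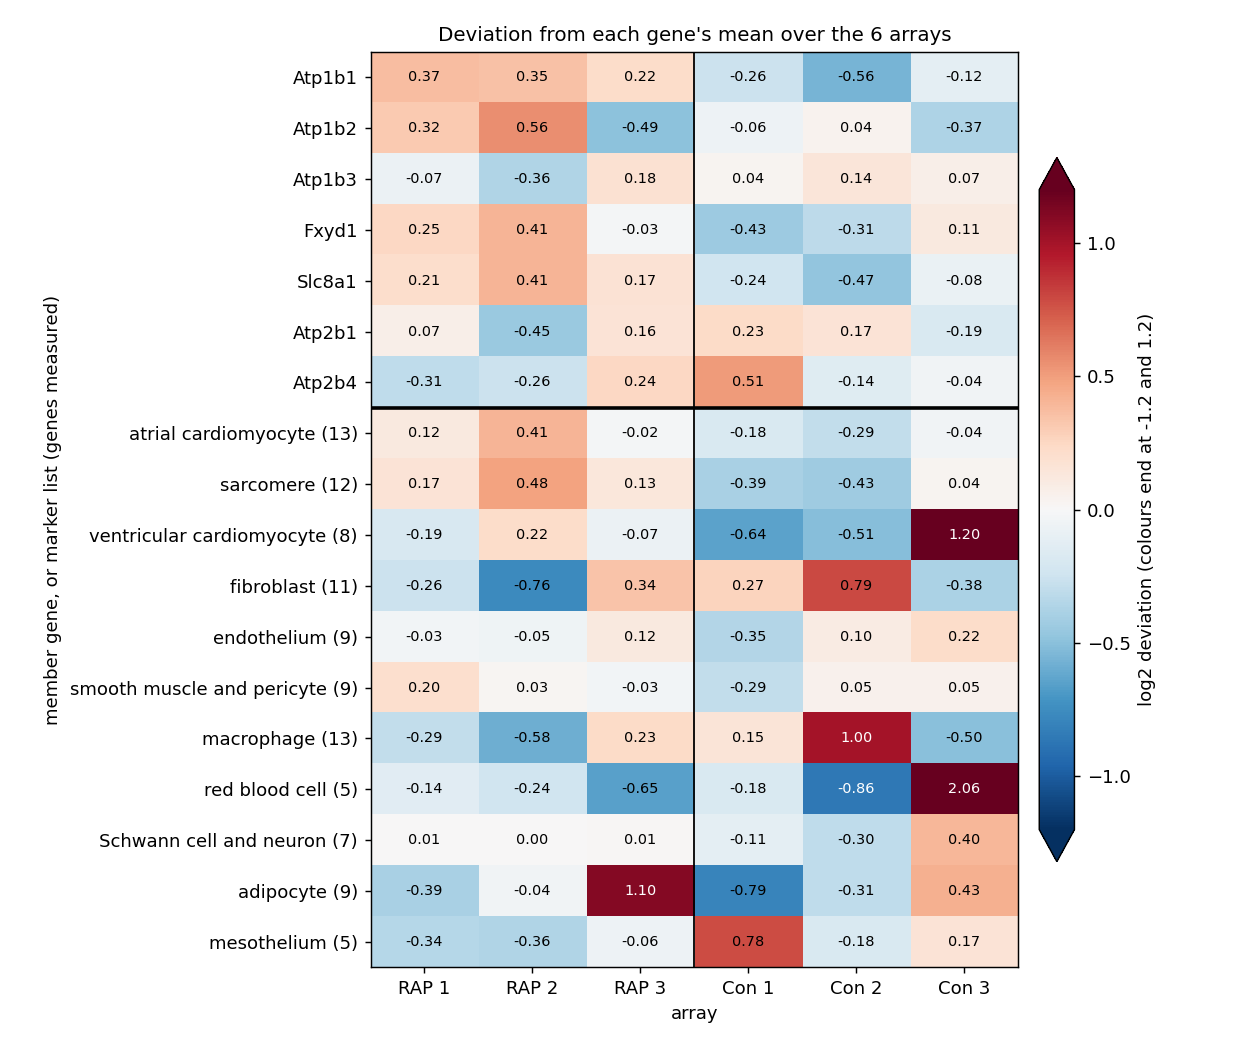
Log2 deviation from the gene's mean over the 6 arrays, or the mean deviation of a marker list, for RAP 1 to 3 and Con 1 to 3 (columns); rows above the line are the 7 genes, rows below it the marker lists with the number of genes measured. Atp1b1 and Slc8a1 are above 0 on every RAP array and below 0 on every Con array, and ventricular and red blood cell markers are highest on Con 3.

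Over the 6 arrays the pattern of Slc8a1 was among those most like that of Atp1b1. Likeness is the root mean square difference of the log2 values, each gene centred on its own mean, and is a description over 6 arrays that share 2 groups. Arap2, a GTPase-activating protein, differed from Atp1b1 by 0.078, Slc8a1 by 0.081 as the second of 11236 genes, and Igf2r, the mannose 6-phosphate receptor, by 0.092. In the other direction Atp1b1 was 18th among the genes nearest to Slc8a1. The genes nearest to Fxyd1 were Abcc8, the sulfonylurea receptor SUR1 of ATP-sensitive potassium channels, at 0.026, Cds2, an enzyme of phospholipid synthesis, at 0.041, and Sccpdh at 0.045. Those nearest to Atp1b2 were Cxxc4, an inhibitor of Wnt signaling, at 0.12, Spetex2el3 at 0.12 and Sipa1l2 at 0.13. The most unlike pair among the 7 was Atp1b2 and Atp2b4, at 0.59.

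The other genes of the pathway were mostly within the thresholds. Their lists were written from textbook roles, with earlier results of these data known, so counts over them are descriptions. Of 60 listed, 40 were measured, of which 3 rose and 1 fell, beside 2.94% and 3.45% of all genes. Their median change was 0.10, with 28 of 40 above 0, beside 5480 of 11237 among all genes. Relative to the atrial cardiomyocyte markers, a scale that lowers all genes alike, 7 of 40 were above 0, with a median of -0.24. The deposited median stood 0.11 above that of all genes, a distance that the marker scale cannot alter. The pair medians were 0.13, 0.30 and -0.03. Leaving out pair 1 or pair 2 gave 0 higher and 0 or 1 lower, leaving out pair 3 gave 8 higher and 3 lower, and leaving out Con 3 alone, unpaired, gave 6 higher and 3 lower.

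Among the pump subunits outside the 7 (1 of 5 measured here), Atp1b4 rose. In placental mammals it encodes a protein of the nuclear envelope of muscle and not a pump subunit. Its signal was 6.01, 7.30 and 6.57 in RAP rats, against 5.26, 5.81 and 6.30 in Con rats, with RAP 1 below Con 3. The pairs gave 0.76, 1.49 and 0.27, and limma gave 0.84 with an SE of 0.26 (adjusted p = 0.76). The call was lost without the pair as a block, without pair 1 (0.88) and without pair 2 (0.52), and unpaired without any single array other than RAP 1 and Con 3 (0.51 to 0.87).

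Of the sodium-calcium exchangers outside the 7 (6 of 8 measured, 0 higher and 1 lower), Slc8b1 fell. It encodes NCLX, the exchanger that carries calcium out of mitochondria. Its signal was 6.87, 6.74 and 7.06 in RAP rats, against 7.82, 7.63 and 7.33 in Con rats, and the groups did not overlap. The pairs gave -0.94, -0.89 and -0.27, and limma gave -0.70 with an SE of 0.19 (adjusted p = 0.76). The call was lost without pair 1 (-0.58) and without pair 2 (-0.61). Slc24a3, a potassium-dependent sodium-calcium exchanger, had the largest change that did not pass in this list, with 0.73, 1.11 and -0.03 in the pairs and 0.60 on average (SE 0.25, adjusted p = 0.76).

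The anchors and kinases of pump and exchanger, a list that also holds the phosphatase inhibitor Ppp1r1a, were all measured (10 of 10). The list was written with earlier results of these data known, so its counts describe it and are no test. All 10 had a change above 0 as deposited, with array medians equalized and after a second quantile normalization, beside 5480 of 11237 genes as deposited. Relative to the atrial cardiomyocyte markers, a scale that lowers all genes alike, 3 of 10 were above 0. The median of the list by construction stood 0.24 above that of all genes on both scales. Of these 10, 2 rose and 0 fell, beside 2.94% and 3.45% of all genes. Cav3 encodes caveolin-3, the muscle protein of caveolae. Its signal was 8.70, 8.78 and 8.77 in RAP rats, against 7.43, 7.87 and 8.55 in Con rats. The RAP arrays were nearly equal and above all Con arrays, and limma gave 0.80 with an SE of 0.23 (adjusted p = 0.76). The call was lost without pair 1 (0.57) and without pair 2 (0.74), and unpaired without RAP 2, RAP 3, Con 1 or Con 2 (0.54 to 0.79).

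Ank2 encodes ankyrin-B, which anchors the sodium pump and NCX1 in the cardiomyocyte membrane. Its signal was 8.04, 8.43 and 7.75 in RAP rats, against 7.42, 7.30 and 7.63 in Con rats, again with no overlap. The pairs gave 0.62, 1.12 and 0.12, and limma gave 0.62 with an SE of 0.23 (adjusted p = 0.76). The call was lost without pair 1 (0.62), without pair 2 (0.37) and, unpaired, without Con 2 (0.55). Ppp1r1a, the inhibitor of protein phosphatase 1, had the largest change that did not pass, at 0.37 (SE 0.16, adjusted p = 0.76), with RAP above Con on all arrays.

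In the remaining lists no gene passed. The FXYD and NKAIN regulators (7 of 10 measured) ran between -0.80 and 0.60 with a median of -0.16. The largest change was that of Fxyd5, known as dysadherin, at 8.48, 8.19 and 8.78 in RAP rats, against 9.48, 9.65 and 8.71 in Con rats (mean change -0.80, SE 0.32, adjusted p = 0.76). The plasma membrane calcium pumps and their subunits outside the 7 (6 of 7 measured) ran between -0.12 and 0.18, with Atp2b3 at 0.18 (SE 0.14, adjusted p = 0.81). The sodium-hydrogen exchangers and other ion transporters (10 of 20 measured) ran between -0.28 and 0.43, with Slc12a7, a potassium-chloride cotransporter, at 0.43 (SE 0.27, adjusted p = 0.78).

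**Figure D4:**
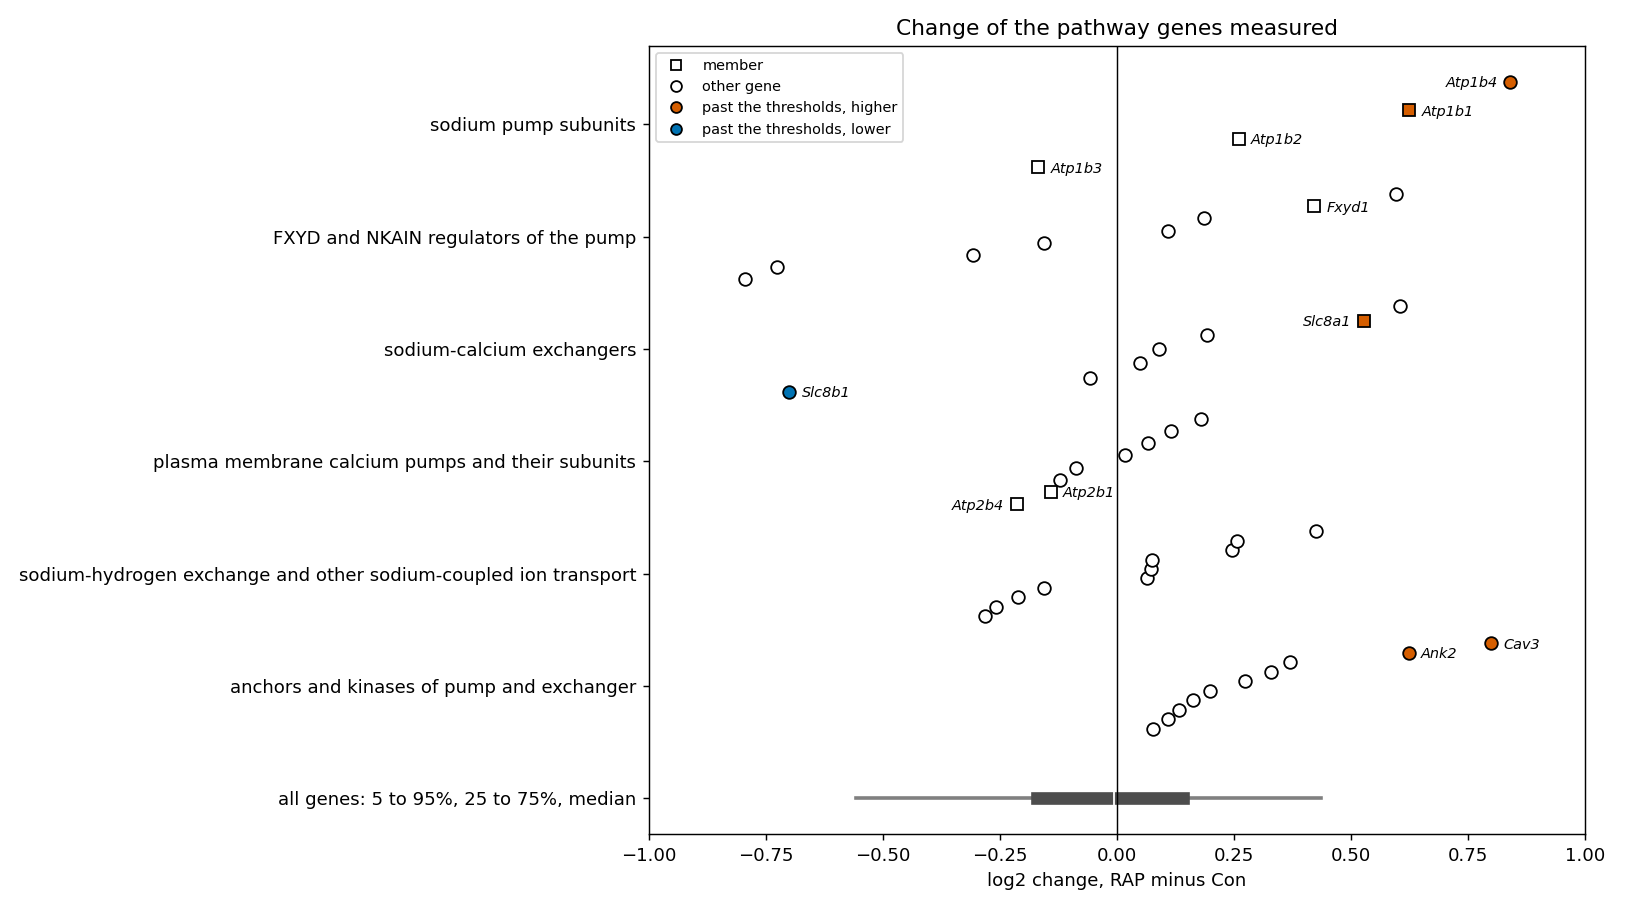
Change (log2, RAP minus Con, horizontal axis) of each measured gene of the pathway lists, with squares for the 7 genes and circles for the others; orange marks genes past the thresholds as higher, blue as lower, and the bottom line shows the spread of all genes. The anchors and kinases lie above 0 (0.08 to 0.80; 3 of 10 do relative to the atrial cardiomyocyte markers, a scale that lowers all genes alike), and Slc8b1 is the only gene past the thresholds as lower (-0.70). The lists were written with earlier results of these data known.

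Of 19 other settings, Atp1b1 and Slc8a1 kept a positive change in all 19 and passed the thresholds in 15 each. Fxyd1 passed in 4, Atp1b2 in 2 and Atp2b4, as lower, in 1. Atp1b3 was below 0 and did not pass in any.

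**Figure D5:**
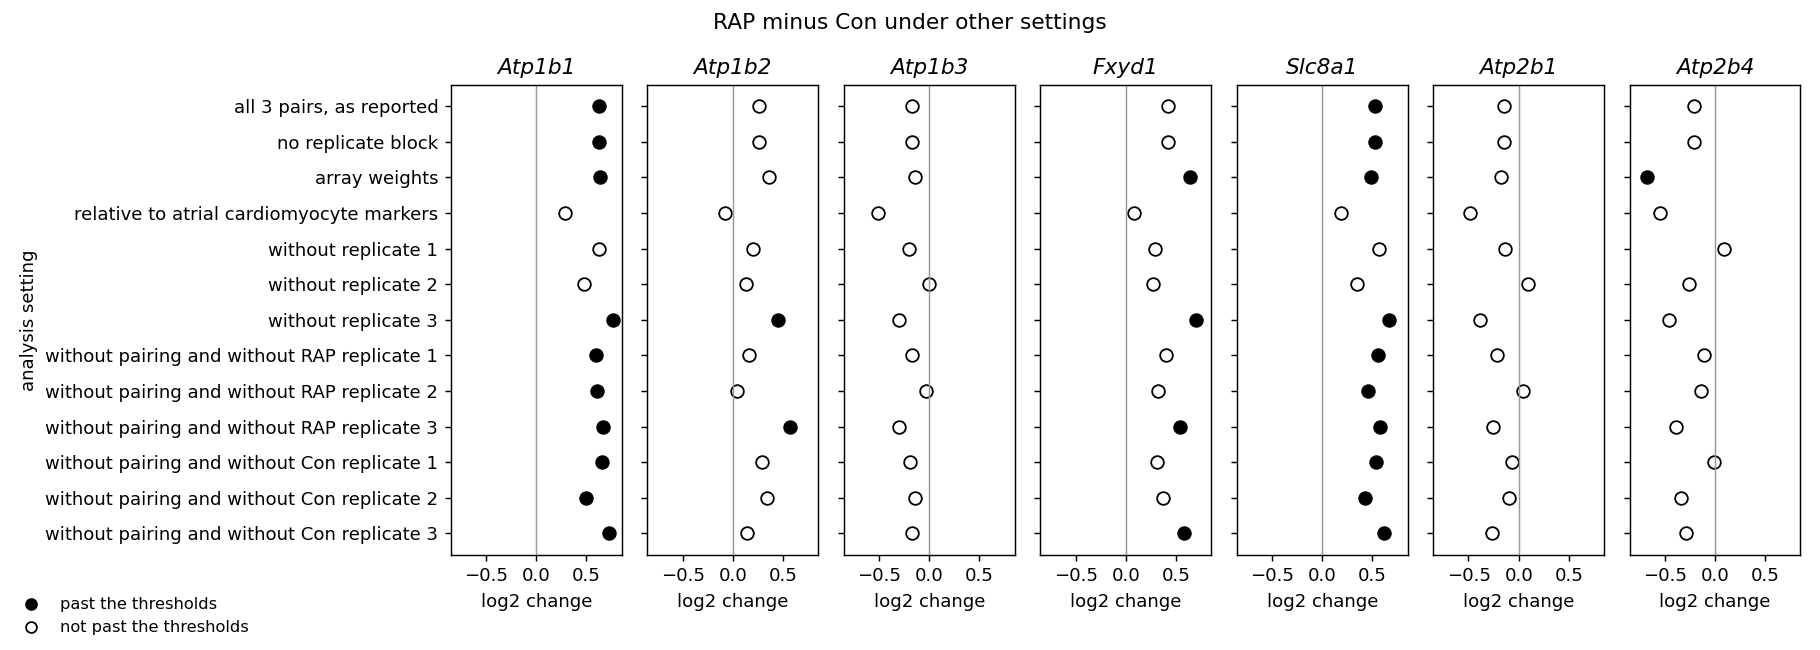
Log2 change, RAP minus Con (horizontal axis), of the 7 genes under the reported fit and 12 other settings (rows); filled points pass the thresholds. Atp1b1 and Slc8a1 stay above 0 in every row shown, and the points of Atp1b3 lie at or below 0.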

How the data were processed

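RNA of 6 left atria, 3 per group, was measured on Affymetrix GeneChip Rat Gene 1.0 ST arrays. The deposited values are log2 signals that the authors computed by robust multiarray averaging, with the defaults of Partek Genomics Suite (version not given in the sources used here), and their spread between arrays limits the precision. Of 29214 probe sets, 15310 carry 1 symbol, 323 several and 13581 none, and 19907 exceeded 5 on at least 1 array. Of several probe sets of a gene, the brightest on average stands for it, which gave 11237 genes. The groups were compared by limma (version 3.58.1, R 4.3.3), the pair as a block, and p-values were adjusted over all kept probe sets. The pairs come from the study's methods and the labels. The deviations of paired arrays from their group means correlated at 0.22, -0.24 and -0.32 in pairs 1 to 3. The paper reports similarity within each pair by principal component analysis, a different measure. The negative correlations of pairs 2 and 3 do not show such a likeness. Promoter windows are RefSeq's (GRCr8).

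The members, lists and tests were chosen with earlier results of these data known. Named are the 7 members, pathway genes past the thresholds and the largest change not past them in each list, and the 3 nearest genes of the 3 members with the largest SD. The alternatives were the methods' paired t-test, no replicate block, variance trend with robust moderation, array weights, other filters and scalings, the mean of probe sets, and leaving out each pair or array.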

Additional observations from a re-analysis of the deposited data

How the results depend on the processing

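Atp1b1 kept a change of 0.62 in the methods' paired t-test and Slc8a1 0.53, neither past the threshold. Relative to the atrial cardiomyocyte markers the changes were 0.28 for Atp1b1, 0.19 for Slc8a1 and -0.08 for Atp1b2. That scale lowers all genes alike, and against their median Atp1b2 by construction stood at 0.27 on both scales. With array weights Fxyd1 passed at 0.64 and Atp2b4 at -0.68. That fit also gave adjusted p-values of 0.037, 0.043 and 0.038 for Atp1b1, Slc8a1 and Fxyd1 and brought 2738 probe sets (of 19907) below an adjusted 0.05, against 2 relative to the markers and 0 in the reported fit and each other setting. Its weights were estimated from the same 6 arrays, with 2 residual degrees of freedom, and its changes lay near those of pair 1. Atp2b4, at -0.68, had -0.82, -0.11 and 0.29 in pairs 1 to 3. Cav3, at 1.17, had 1.26, 0.91 and 0.22. These adjusted p-values therefore do not rest evenly on the 3 pairs. Without single pairs or arrays, changes ran from 0.48 to 0.77 for Atp1b1, 0.044 to 0.57 for Atp1b2, -0.31 to -0.0019 for Atp1b3, 0.27 to 0.70 for Fxyd1, 0.35 to 0.66 for Slc8a1, -0.39 to 0.094 for Atp2b1 and -0.46 to 0.087 for Atp2b4.

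The count of members past the thresholds as higher, 2, was 0 by the t-test, 0 relative to the markers and 0 to 4 without single pairs or arrays, and the count as lower, 0, was 1 with array weights. For the other pathway genes, 3 higher and 1 lower, the t-test gave 0 and 0, array weights 7 and 5, the marker scale 0 and 4, and leaving out pairs or arrays 0 to 8 and 0 to 3. For all genes, 330 higher and 388 lower, these settings gave 119 and 115, 1161 and 1489, 18 and 1260, and 58 to 1066 and 106 to 1422. With no replicate block, Atp1b1 and Slc8a1 still passed, the members' calls were unchanged, and the other pathway genes had 2 higher and 2 lower. The causes were not tested.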

Other observations

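Fxyd2 and Fxyd3 had SDs over the 6 arrays of 0.76 and 0.99, above the 0.20 to 0.40 of the members. Fxyd2, the gamma subunit known from the kidney pump, was at 7.92, 7.44 and 8.39 in RAP rats, against 8.81, 9.46 and 7.66 in Con rats, and its pairs gave -0.89, -2.02 and 0.73. Fxyd3 was at 6.76, 7.27 and 5.23 in RAP rats, against 6.004, 4.73 and 6.74 in Con rats, and its pairs gave 0.76, 2.54 and -1.51. The signs of Fxyd2 are those of both the macrophage and the fibroblast markers in every pair, and the signs of Fxyd3 are the opposite. Fxyd5 had the signs of Fxyd2, at -0.99, -1.47 and 0.08. The part of tissue makeup was not tested. Fxyd2 and Fxyd3 were chosen after their values were seen, and neither passed the thresholds.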
